A study of Mus musculus with 237 samples.

Results

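The mRNA levels of 50 cell cycle genes were examined in single skin cells of mouse embryos collected at E14.5. The 50 genes were chosen by name and were looked up by Ensembl identifier in a raw count table of 55335 gene rows, of which 33357 had at least 1 count. Of these genes, 20 act in G1/S and DNA replication and are called the S list here. A further 25 act in G2 and mitosis and are called the G2/M list. The remaining 5, the D cyclins Ccnd1, Ccnd2 and Ccnd3 and the cyclin-dependent kinase (CDK) inhibitors Cdkn1b and Cdkn2c, regulate G1, so the name "S and G2/M genes" did not cover them and they are described separately.

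The study compared C57BL/6N wild type embryos with Trp63 mutant embryos, called p63 KO, made by putting Cas9 and a guide RNA against the exon for the DNA-binding domain into zygotes, and both kinds were carried by ICR surrogate mothers. Trp63 encodes p63, the transcription factor needed for a stratified epidermis. The labels describe 66 wild type cells from 3 embryos, including 45 basal (WT-KCB), 8 intermediate layer (WT-KCI) and 8 K17 high (WT-KCP, called periderm in the study) keratinocytes, and 171 p63 KO cells from 7 embryos, including 50 p63 KO-SER cells (remnant surface ectoderm), 28 p63 KO-SKH cells (remnant cells with markers of mature keratinocytes) and 70 fibroblasts of 1 embryo. Wild type epidermis was peeled off with dispase before trypsin, whereas mutant fetuses went straight into trypsin. By the methods, cDNA was screened by qPCR before sequencing, for Krt5 in wild type and Krt8 in mutant cells. Selected samples were also checked for a lack of marked Pdgfra signal, and the labels name the screen for mutant embryos. The screen thus used 2 of the keratins that define the states here. All cells were sorted as negative for propidium iodide, CD45, TER119 and CD140a on the cell surface. The alleles of the single mutant embryos were not used here.

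The count table had 1 column for each sorted cell. A supplementary table tied 16 of these columns to cell titles, all from 1 wild type embryo (11 WT-KCB, 1 WT-KCI and 4 WT-KCP cells). No source used here tied the other 221 columns to an embryo or a genotype, so all columns were pooled as 1 sample, and states were read from keratin and collagen levels in CPM (the gene's count divided by the column total and scaled to 1000000). Basal columns had Krt5 and Krt14 of at least 300 CPM with Krt8 under 100 CPM. Simple columns had Krt8 and Krt18 of at least 100 CPM with Krt5 and Krt14 under 100 CPM. Suprabasal columns had Krt1 and Krt10 of at least 1000 CPM, and mesenchymal columns had Col1a1 and Col3a1 of at least 100 CPM. These rules gave 52 basal, 6 suprabasal, 65 simple and 78 mesenchymal columns. A further 33 columns met no rule, and 3 met 2 rules and were set apart. With 1 sample there was no replicate check and no test between states was made. Intervals are exact 95% intervals and cover counting error only. State could not be told apart from genotype, tissue preparation or the qPCR screen.

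Column totals ran from 2701500 to 19197138 counts with a median of 6938031, and 6951 to 13204 genes had a count. The median total was 7821784.5 counts in basal, 7545096.5 in suprabasal, 7298099 in simple and 6085480.5 in mesenchymal columns. Basal columns had the most genes with a count, at a median of 11778.5, against 9722 in simple columns. Trp63 itself had a median of 504.7 CPM in basal, 156.5 CPM in suprabasal, 82.67 CPM in simple and 0 CPM in mesenchymal columns. Small edits need not remove a transcript, so this level did not check genotype. Each state carried the keratins or collagens of its rule by definition, which is no check. Outside the rules, at 10 CPM or more, Krt15 was in 52 of 52 basal and 42 of 65 simple columns. Col17a1 was in 52 and 1, Itga6 in 45 and 20, Krt19 in 6 and 39, and Epcam in 52 and 64. Krtdap, Sbsn and Lor were in all 6 suprabasal columns, in 20, 5 and 15 basal columns, and in 36, 1 and 7 simple columns. Ptprc (CD45) was at 0 in every column of the 4 states. Pdgfra, which encodes the CD140a that the sort selected against, had a median of 256.8 CPM in mesenchymal columns. It was at 10 CPM or more in 66 of these 78 columns, and Krt5 and Krt8 were in 0. Mesenchymal columns were thus unlike cells that passed the qPCR screen as the methods describe it. The mesenchymal markers were not confined to mesenchymal columns. In simple columns Dcn was at 10 CPM or more in 55 of 65, Col3a1 in 35, Col1a2 in 13, Lum in 7, Col1a1 in 4, Twist1 in 1 and Pdgfra in 0. In basal columns Dcn was at that level in 51 of 52 (median 502.5 CPM, against 337.6 CPM in simple columns). Of the 52, Col1a2 was in 9, Col3a1 in 4, Lum in 2, Pdgfra in 1, and Col1a1 and Twist1 in 0.

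As background, cells enter S phase when cyclin D and cyclin E kinases release E2F transcription factors from the retinoblastoma protein. E2F factors then switch on the genes for helicase loading, nucleotide supply and DNA synthesis. In G2 a different set is switched on, through the B-Myb and FoxM1 complexes, for entry into mitosis and chromosome segregation. In embryonic epidermis, dividing cells are known mainly from the basal layer, although suprabasal divisions also occur during early stratification.

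The S and G2/M lists also differed in short motifs near their start sites, which are shown because the lists were defined by phase and not by sequence. RefSeq promoters of the mouse build GRCm38.p6, running from 250 bases before to 50 bases after the start site, were matched for 41 of the 50 genes. Both strands were searched for the CCAAT box, the cell cycle homology region (CHR, TTTGAA or TTCGAA), and E2F motifs (TTTCCCGC, TTTGGCGC, TTTCGCGC, TTTGCCGC, TTCCCGCC or TTGGCGCC). Some E2F motifs overlap each other. Of the 21 G2/M promoters, 17 (81.0%) held a CHR and 16 (76.2%) held a CHR together with a CCAAT box, against 19.4% and 7.7% of 27025 promoters, 1 per gene. An E2F motif was found in 2 of the 21 (9.52%). Of the 17 S promoters, 8 (47.1%) held an E2F motif, against 4.53% of the 27025, and 4 (23.5%) held a CHR. CCAAT boxes were in 18 of 21 G2/M, 11 of 17 S and 37.9% of the 27025 promoters. Of the 3 G1 regulators matched, 1 held a CCAAT box and none held a CHR or an E2F motif of these letters. The most abundant members of each list that held its motif are shown as the 250 bases up to the start site, 5′ to 3′, with CHR and CCAAT matches on either strand in capitals for Top2a and Cdc20 and E2F matches in capitals for Mcm6 and Rrm1. A match is a description and not a binding site.
Top2a, chr11:99024190-99024439, minus strand: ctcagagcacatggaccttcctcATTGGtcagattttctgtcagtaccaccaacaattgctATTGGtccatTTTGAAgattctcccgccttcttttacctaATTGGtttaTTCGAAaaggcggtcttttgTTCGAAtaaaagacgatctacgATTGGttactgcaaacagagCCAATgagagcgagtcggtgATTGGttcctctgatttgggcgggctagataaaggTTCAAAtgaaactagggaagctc
Cdc20, chr4:118437344-118437593, minus strand: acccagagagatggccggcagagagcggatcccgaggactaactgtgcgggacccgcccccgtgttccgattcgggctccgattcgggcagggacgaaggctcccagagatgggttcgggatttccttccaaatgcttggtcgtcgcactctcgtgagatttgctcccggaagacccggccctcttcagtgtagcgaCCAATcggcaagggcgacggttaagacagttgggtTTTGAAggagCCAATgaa
Mcm6, chr1:128359706-128359955, minus strand: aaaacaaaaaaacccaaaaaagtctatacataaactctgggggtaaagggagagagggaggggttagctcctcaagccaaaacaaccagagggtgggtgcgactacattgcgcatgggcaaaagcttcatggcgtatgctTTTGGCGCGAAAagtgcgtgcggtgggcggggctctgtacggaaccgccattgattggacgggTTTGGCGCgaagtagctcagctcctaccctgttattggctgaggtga
Rrm1, chr7:102441445-102441694, plus strand: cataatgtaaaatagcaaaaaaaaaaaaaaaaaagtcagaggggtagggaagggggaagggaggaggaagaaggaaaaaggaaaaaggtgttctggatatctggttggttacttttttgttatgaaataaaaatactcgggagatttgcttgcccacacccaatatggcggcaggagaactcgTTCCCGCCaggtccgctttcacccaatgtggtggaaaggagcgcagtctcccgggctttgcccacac
The CHR nearest the start began 23 bases before it in Top2a and 18 bases before it in Cdc20. Top2a held 4 CHR and 6 CCAAT matches in this stretch. In Mcm6 a pair of E2F matches, 110 and 106 bases before the start, overlapped, and another began at 47 bases, while Rrm1 held 1 at 67 bases.

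The first question was how many cells of each state expressed the S and G2/M programmes. A gene was counted as detected at 10 CPM or more. The G2/M list was called on where at least 13 of its 25 genes were detected, and the S list where at least 10 of its 20 were. The G2/M list was on in 35 of 52 basal columns, or 67.3% (95% interval 52.9 to 79.7). It was on in 34 of 78 mesenchymal columns, or 43.6% (32.4 to 55.3), and in 11 of 65 simple columns, or 16.9% (8.76 to 28.3). These intervals count cells of 1 pooled sample and make no comparison between states. Of the suprabasal columns, 3 of 6 had the list on, and with 6 columns the interval ran from 11.8% to 88.2%.

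The S list was on in more columns than the G2/M list in the basal, mesenchymal and simple states. It was on in 50 of 52 basal columns, or 96.2% (86.8 to 99.5), in 65 of 78 mesenchymal columns, or 83.3% (73.2 to 90.8), and in 37 of 65 simple columns, or 56.9% (44 to 69.2). Among suprabasal columns 2 of 6 had it on. Both lists were on together in 34 basal, 31 mesenchymal, 9 simple and 2 suprabasal columns. Neither was on in 26 simple columns (40%), 10 mesenchymal columns (12.8%), 3 suprabasal columns and 1 basal column (1.92%). The G2/M list without the S list was rare, in 9 columns of all. An S list that is on does not by itself show DNA synthesis, because several of its transcripts are present outside S phase.

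Each call was a cut through a range. The number of G2/M genes detected had a median of 23 in basal, 10 in suprabasal, 7.5 in mesenchymal and 3 in simple columns. It was mostly either high or low: 70 of all columns had at least 20 of the 25 genes and 109 had at most 4. Of the basal columns 30 had at least 20 genes, whereas 46 of the 65 simple columns had at most 4. In all, 15 columns (6.33%) lay at 11 to 14 genes, next to the cut. The S list had no such gap. Its median was 16 genes in basal, 11 in simple and 8.5 in suprabasal columns, with mesenchymal columns between basal and simple, and 47 columns (19.8%) lay at 8 to 11 genes.

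**Figure D1:**
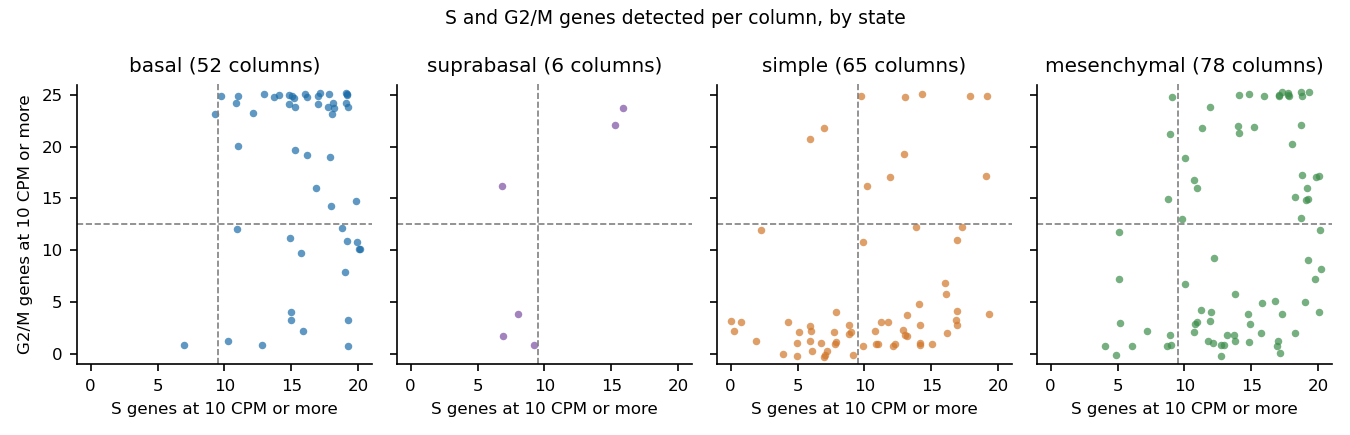
Number of G2/M genes (of 25, vertical) against number of S genes (of 20, horizontal) detected at 10 CPM or more, 1 slightly jittered point per column and 1 panel per state, with dashed lines at the cuts for a list being on. Of the 52 basal columns 30 lie at 20 G2/M genes or more, while 46 of 65 simple columns lie at 4 or fewer.

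Depth and a few libraries were checked beside these shares. Across all columns the total count had a Pearson r of −0.06 with the number of G2/M genes, and the number of genes with a count had an r of 0.29. With every column thinned to 500000 counts the G2/M list was on in 67.3% of basal, 43.6% of mesenchymal and 18.5% of simple columns, and the S list in 98.1%, 84.6% and 58.5%. In 1 simple column the hemoglobin genes Hbb-bs and Hba-a1 took 467000 CPM, and it had 0 S and 2 G2/M genes detected. Summed hemoglobin reached 10 CPM in 16 of 65 simple, 3 of 52 basal and 0 of 78 mesenchymal columns. Among the 30 simple columns with Col3a1 under 10 CPM, a split chosen after the values were seen, the G2/M list was on in 3 (10%) and the S list in 15 (50%), and 25 of 25 G2/M genes and 13 of 19 S genes were lower than in basal columns by 2-fold, where 15.4% of all genes were. No doublet caller was run.

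**Figure D2:**
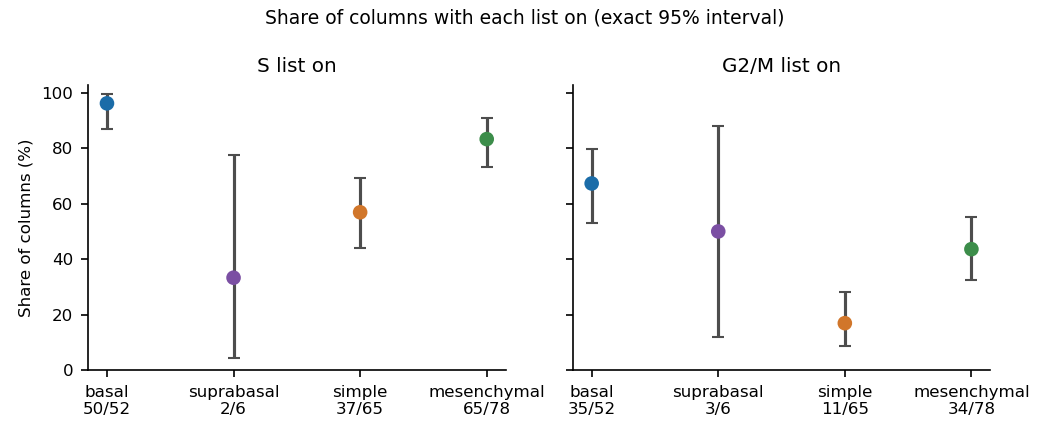
Share of columns with the S list on and with the G2/M list on, in percent, by state. Points are the shares and bars are exact 95% intervals for counting error, and the G2/M points stand at 67.3% in basal, 43.6% in mesenchymal and 16.9% in simple columns.

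Simple columns had lower G2/M transcripts than basal columns for 24 of the 25 genes by 2-fold or more, where 11.5% of 10759 genes were lower by that much. Levels here are CPM of the counts summed over a state, and ratios are log2 values with 1 CPM added to each side. Genes with at least 10 CPM in either state were compared. The median G2/M ratio was −1.72, against 0.03 for all genes. Kif11, the motor that separates the spindle poles, was furthest away, at 40.22 CPM in simple and 223.9 CPM in basal columns (−2.45). Plk1, a kinase of mitotic entry, was at 45.9 against 215.7 CPM (−2.21), and Top2a, which untangles sister DNA, was at 110.8 against 497 CPM (−2.16). Ccnb2, a mitotic cyclin, stayed just inside 2-fold at 140.7 against 279.4 CPM (−0.98). Most single simple columns were near 0 for these genes: the median Top2a level was 0.8366 CPM in simple and 405.4 CPM in basal columns.

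The other G2/M genes lay between these values. For the CDK and cyclins of mitotic entry the simple to basal ratio was −1.43 (Cdk1), −1.94 (Ccnb1) and −1.76 (Ccna2). The Aurora kinases and the survivin subunit of the Aurora B complex were at −1.59 (Aurka), −1.99 (Aurkb) and −1.39 (Birc5). Spindle checkpoint genes were at −2.02 (Bub1), −1.64 (Bub1b) and −2.14 (Ttk). For genes of the centromere and kinetochore it was −1.22 (Cenpe), −1.48 (Cenpf), −1.02 (Cenpa) and −1.83 (Ndc80). The spindle and cytokinesis genes were at −1.53 (Nusap1), −1.80 (Tpx2), −1.72 (Kif20a), −2.08 (Kif23) and −1.82 (Hmmr). For the anaphase-promoting complex the activator Cdc20 was at −1.53 and the ubiquitin-conjugating enzyme Ube2c at −1.17. The proliferation antigen Mki67 was at −1.33.

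The S list differed less between simple and basal columns. Of 19 S genes compared, 11 were lower by 2-fold or more and none was higher, where 14.8% of all genes were higher by that much, and the median ratio was −1.10. Cdc45, a subunit of the active helicase, was lowest at 28.65 against 112.5 CPM (−1.94), followed by Rrm2 (−1.87) and Uhrf1 (−1.58). Among the genes that load and complete the replicative helicase, Cdc6 (−0.39), Cdt1 (−0.32) and Gins2 (−0.01) stayed within 2-fold, as did Mcm2 (−0.82) and Mcm6 (−0.46), whereas Mcm3, Mcm4, Mcm5 and Mcm7 lay between −1.30 and −1.10. The sliding clamp Pcna (−1.24), the flap nuclease Fen1 (−1.47) and the nucleotide synthesis genes Tyms (−1.07) and Rrm1 (−1.15) were past 2-fold. The cyclin E genes Ccne1 (−0.44) and Ccne2 (−0.66) and the histone mRNA binding gene Slbp (−0.78) were not. Ung, a DNA repair glycosylase, was under 10 CPM in both states, at 5.534 and 6.65 CPM.

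**Figure D3:**
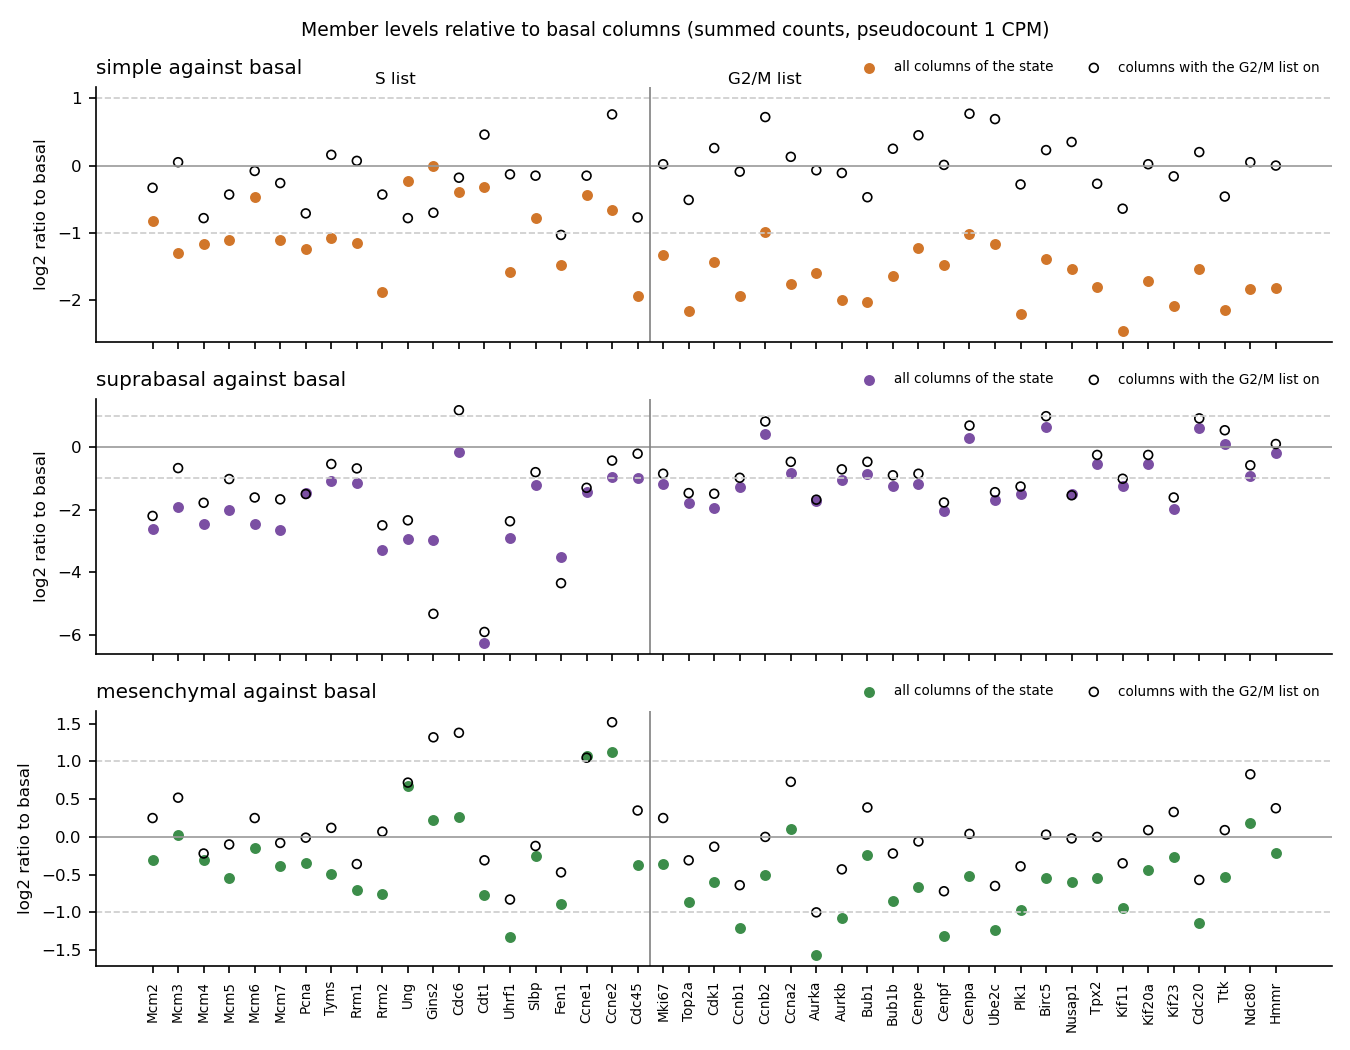
Log2 ratio of each S and G2/M gene to basal columns, from summed counts with 1 CPM added, for simple, suprabasal and mesenchymal columns, with dashed lines at 2-fold. Filled points use all columns of a state and open points compare columns with the G2/M list on in both states, where the simple median for G2/M genes is 0.02, against −1.72 with all columns.

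In mesenchymal columns the G2/M genes lay closer to the basal level. Of 25 genes, 6 were lower by 2-fold or more, against 18.6% of 10949 genes, and the median was −0.60 against −0.27 for all genes. The 6 were Aurka (57.69 against 172.5 CPM, −1.56), Cenpf (−1.31), Ube2c (−1.23), Ccnb1 (−1.21), Cdc20 (−1.14) and Aurkb (−1.08). Ndc80 (0.19) and Ccna2 (0.11) were at about the basal level. Of 20 S genes, Ccne1 (199.1 against 94.27 CPM, 1.07) and Ccne2 (105.6 against 47.92 CPM, 1.12), which encode the cyclins of the G1/S step, were higher by 2-fold, against 16.7% of all genes. That count of 2 depended on how columns were combined and was 0 with the mean of the columns' CPM in place of summed counts. Uhrf1, which maintains DNA methylation at replication, was lower at 215.2 against 539.5 CPM (−1.32). The other 17 lay between −0.89 (Fen1) and 0.67 (Ung).

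The 6 suprabasal columns were few and unlike each other. They had 1, 2, 16, 4, 24 and 22 G2/M genes detected, and the first of them is the WT-KCI cell. Ccnb1 was at 0.7278, 4.436, 491.7, 3.63, 484.6 and 441.1 CPM in these columns. The 3 columns with the list on were thus above the basal median of 276.3 CPM, and the other 3 were far below it. Top2a followed a different split, at 0.2426, 6.784, 1.375, 2.209, 968.5 and 50.64 CPM, so that 1 column with 16 G2/M genes had almost none. All 6 columns held Krt1 of 2170 CPM or more.

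Summed over the 6 columns, 16 of 19 S genes and 14 of 25 G2/M genes were lower than in basal columns by 2-fold or more, where 27.3% of 10388 genes were lower by that much and 13.7% higher. The S median was −2.01 and the G2/M median −1.18, against −0.19 for all genes. Cdt1, which licenses origins and is destroyed once S phase begins, had 10 counts in all 6 columns, or 0.2086 CPM (0.1 to 0.3837), against 91.13 CPM in basal columns. Ung had no count, which allows up to 0.0626 CPM by a floor of 3 counts (upper exact 95% limit 0.07696 CPM). The S genes that stayed within 2-fold were Cdc6 (−0.16), Ccne2 (−0.97) and Cdc45 (−0.98). Among G2/M genes, Birc5 (0.64), Cdc20 (0.62) and Ccnb2 (0.41) were above the basal level, and Cdk1 (−1.94), Kif23 (−1.97) and Cenpf (−2.05) were the furthest below.

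Because state levels mix on and off columns, the columns with the G2/M list on were also compared with each other. The call used these same G2/M values, so this is a description of the called columns and not a finding of its own. The 11 simple columns with the list on had a median G2/M ratio of 0.02 to the 35 basal ones, against −0.02 for all genes. No G2/M gene passed 2-fold, from −0.64 (Kif11) to 0.77 (Cenpa), where 15.5% of all genes were higher and 16.4% lower by that much. The S genes, which the call did not use, had a median of −0.22 in these simple columns, with Fen1 (−1.03) past 2-fold. Among the columns with the list off the S median was −1.22 and 14 of 20 S genes were lower by 2-fold in simple than in basal columns, against 13.5% of all genes (median 0.01). The 34 mesenchymal columns with the list on had a G2/M median of −0.02 and an S median of 0.10, and 4 S genes were higher by 2-fold, with Ccne2 at 1.52, where 16.7% of all genes were (median −0.22).

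Within each state the S genes were compared between columns with the G2/M list on and off. In basal columns the median S ratio of on to off columns was −0.11 (all genes −0.06), and both kinds detected a median of 16 S genes. In simple columns it was 0.81 (all genes −0.06), with medians of 13 and 10 S genes, and in mesenchymal columns 0.76 (all genes −0.01), with medians of 17 and 13. Rrm1, the large subunit of ribonucleotide reductase, was the S gene with the largest such ratio in basal columns, at a median of 958.7 CPM in on and 452.3 CPM in off columns, and the ranges overlapped (259.6 to 1924 and 3.555 to 998.7 CPM). Gins2, a part of the helicase, went the other way in basal columns, at medians of 24.35 and 123 CPM. On summed counts its ratio of on to off columns was −1.38 in basal and −1.49 in simple columns. It was −3.99 in suprabasal columns, with 3 columns on and 3 off. In mesenchymal columns the median of Gins2 was higher in on columns, at 81.65 against 33.7 CPM.

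Across all columns the median Pearson r between pairs of genes, on log2 CPM, was 0.74 within the G2/M list, 0.48 within the S list and 0.20 between the lists. All points shared 1 table and its scaling. The S genes closest to the G2/M list had a median r with it of 0.52 (Rrm1), 0.50 (Tyms), 0.49 (Uhrf1), 0.46 (Cdc45) and 0.45 (Rrm2), while Mcm6 was at −0.02, Gins2 at 0.02 and Cdt1 at 0.03. Ung, which is lowly expressed, was at −0.17. The numbers of S and G2/M genes per column had an r of 0.43 over all columns but 0.01 within basal, 0.31 within simple and 0.33 within mesenchymal columns.

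The 58 columns with 5 to 19 G2/M genes were picked by these same genes, so the counts below are a description. They give no order of genes, and a cut at 10 CPM favours abundant ones. Ccna2, the cyclin that acts from S phase on, Birc5 and Kif20a were each detected in 45 of these columns (77.6%). They were followed by Cdk1 in 41, Mki67 in 36 and Top2a in 34. At the other end were Aurkb in 15, Hmmr in 12 and Nusap1 in 6 (10.3%). The states differed within the 58: Kif20a was in 24 of 25 mesenchymal and 7 of 12 simple columns. Tpx2 was in 9 of 12 simple and 5 of 14 basal columns. Of the 109 columns with at most 4 G2/M genes, 28 still had Kif20a, 24 had Cdk1, 20 had Cdc20 and 17 had Cenpa, while Ndc80 was detected in 0. Part of the Kif20a signal is uncertain, since 38.6% of its counts above 0 were fractional before rounding, as happens where a read is shared between features. The same holds for Slbp (58.5%), Plk1 (46.6%), Ccnd1 (37.8%), Ccne2 (37.4%) and Ccna2 (34.5%). Also above the 23.2% of all values were Ccnd3 (32.9%), Fen1 (31.3%), Mcm7 (29.9%), Gins2 (29.8%), Ccnd2 (26.2%) and Cdc20 (23.9%).

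The 16 columns with a cell label allowed 1 comparison by label, between WT-KCP and WT-KCB cells of 1 embryo. WT-KCP cells carry a keratin 17 high label and are called periderm, the outermost layer of the embryonic epidermis, in the study, and all 4 met the basal keratin rule here. The G2/M list was on in 4 of 4 WT-KCP cells and 7 of 11 WT-KCB cells, with exact intervals of 39.8% to 100% and 30.8% to 89.1%. These intervals count cells of 1 embryo and make no comparison between the labels. The WT-KCP cells had 25, 25, 23 and 24 G2/M genes detected. The 11 WT-KCB cells had 14, 1, 1, 25, 25, 25, 20, 3, 20, 8 and 24, so they held both the highest and the lowest values, and the WT-KCI cell had 1.

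Summed over cells, 21 of 25 G2/M genes were higher in WT-KCP than in WT-KCB cells by 2-fold or more, where 15.8% of 10587 genes were higher by that much, and the median ratio was 1.66 against −0.01 for all genes. Ube2c was furthest at 2.67, with 1530, 107.2, 0 and 1841 CPM in the 4 WT-KCP cells and 0.2222 to 636.2 CPM (median 47.04) in the WT-KCB cells. That difference came from 2 of the 4 cells, and the groups overlapped. Cdc20 was at 1789, 93.21, 1544 and 2003 CPM against 0.4444 to 1628 CPM (median 85.75), which also overlapped (2.24). Ccnb1 was at 2532, 495.8, 413.5 and 3359 CPM against 0.4444 to 2680 CPM (median 253.7). Mki67 was at 431.8, 342.2, 347.3 and 579 CPM against 0.2222 to 335.9 CPM (median 108.2), and here the lowest WT-KCP cell lay just above the highest WT-KCB cell. The 4 genes within 2-fold were Ccna2 (0.52), Kif20a (0.79), Ndc80 (0.81) and Bub1 (0.91). The other 17 lay between 1.05 (Plk1) and 2.26 (Cenpe). The count of genes higher was 17 to 23 when any 1 of the cells was left out.

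The S list did not share this pattern. Of 19 S genes compared, Cdc45 was higher by 2-fold (1.23) and Mcm2 lower (−1.24), where 15.7% of all genes were lower by that much, and the median was −0.32. Both calls changed when certain single cells were left out. Summed S CPM in the WT-KCP cells was 2695, 9861, 1786 and 1374, so that cell 2 held more than the other 3 together, against 914 to 8772 CPM (median 2565) in WT-KCB cells. Without WT-KCP cell 2 the number of S genes lower was 13, where 18.8% of all genes were lower, and the number higher 0, and the Cdc45 ratio was −0.94. Without WT-KCP cell 3 or 4, or WT-KCB cell 1 or 10, no S gene was lower by 2-fold, and without WT-KCP cell 3 or WT-KCB cell 4 the number higher was 2.

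**Figure D4:**
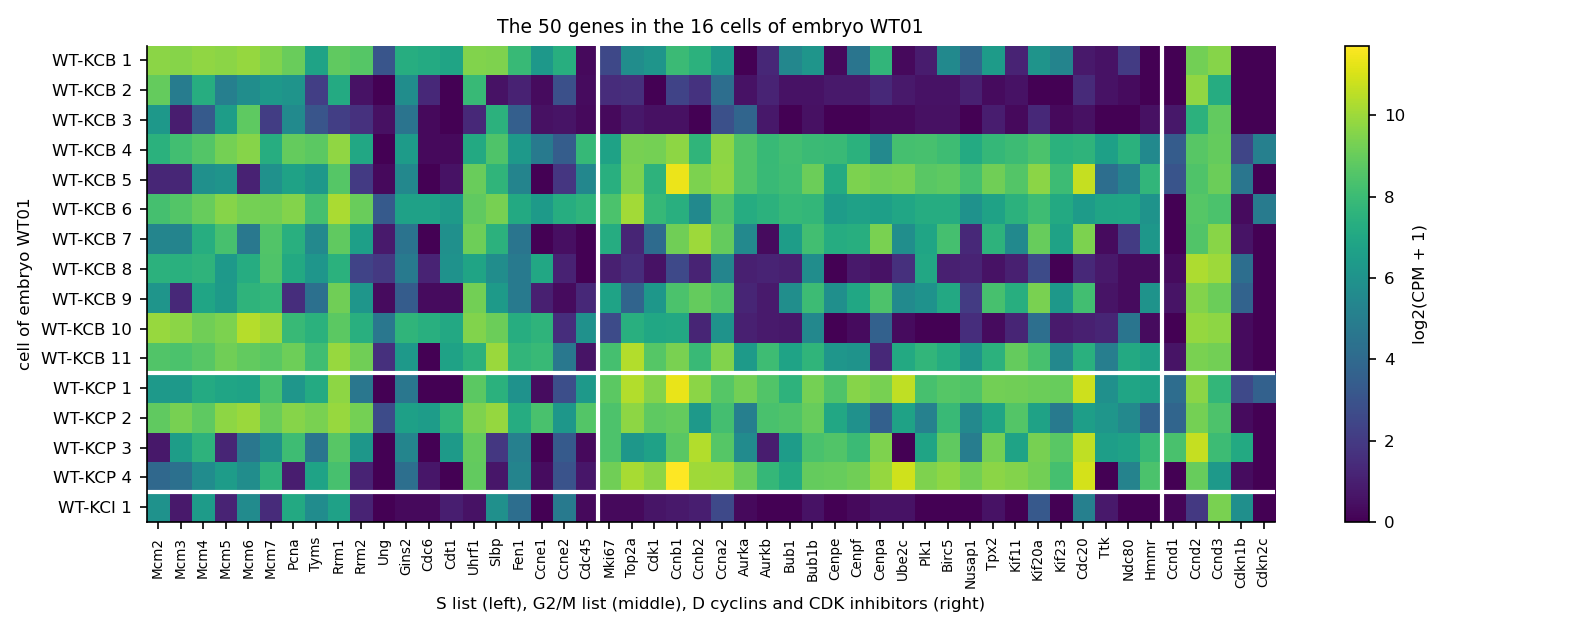
Heat map of log2(CPM + 1) for the 50 genes in the 16 cells with a label, with cells in rows (WT-KCB, WT-KCP and WT-KCI, separated by white lines) and genes in columns (S list, G2/M list and G1 regulators). The 4 WT-KCP rows have 23 to 25 G2/M genes detected, while the 11 WT-KCB rows range from 1 to 25.

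The D cyclins start G1 progression together with CDK4 and CDK6, and each of the 3 had its own order of states. Their genes lie at chr7:144929931-144939925 (Ccnd1, minus strand), chr6:127125162-127152193 (Ccnd2, minus strand) and chr17:47505051-47599691 (Ccnd3, plus strand) of GRCm38. Ccnd1 had a median of 111.4 CPM in mesenchymal and 11.49 CPM in basal columns and of 0 in simple and suprabasal columns. It was detected in 64 of 78 mesenchymal, 26 of 52 basal, 5 of 65 simple and 0 of 6 suprabasal columns. Summed over each state Ccnd1 was at 131.3, 44.49 and 3.106 CPM in the first 3, and the 6 suprabasal columns held 1 count in all. Relative to basal columns the ratio was 1.54 in mesenchymal and −3.47 in simple columns.

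Ccnd2 had a median of 813.8 CPM in basal and 587.4 CPM in mesenchymal columns and was detected in every column of both. In simple columns its median was 56.9 CPM, and values ran from 0.2348 to 3663 CPM with 41 of 65 columns detected, so that simple columns were split. In the 6 suprabasal columns it was at 2.911, 1.827, 1.89, 49.87, 2.114 and 0.6734 CPM. Thus 5 of the 6 were under 3 CPM while keeping the sister gene Ccnd3. Ccnd3 was detected in all basal, mesenchymal and suprabasal columns and in 62 of 65 simple columns, with medians of 570 (basal), 682.8 (suprabasal), 751.2 (simple) and 993.9 CPM (mesenchymal). Levels were also divided by the merged length of all annotated exons of each gene. This length can exceed that of the transcript in use, so the order of the 3 genes on this scale is uncertain. Per kilobase of merged exon, basal columns had 92.3 CPM per kb of Ccnd2, 66 of Ccnd3 and 9.45 of Ccnd1. In simple columns Ccnd3 led, at 97.7 against 31.9 for Ccnd2 and 0.66 for Ccnd1, and in suprabasal columns Ccnd3 was at 80.9 against 0.876 for Ccnd2.

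The CDK inhibitors were low. Cdkn1b (p27) was detected in 15 of 52 basal, 17 of 65 simple, 30 of 78 mesenchymal and 4 of 6 suprabasal columns, and its summed level was 23.49 CPM in suprabasal against 9.564 CPM in basal columns (1.21). Cdkn2c (p18) had a median of 0 in all 4 states and was detected in 8 of 52 basal, 5 of 65 simple, 23 of 78 mesenchymal and 1 of 6 suprabasal columns. Its summed level was 21.27 CPM in mesenchymal against 4.124 CPM in basal columns (2.12).

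**Figure D5:**
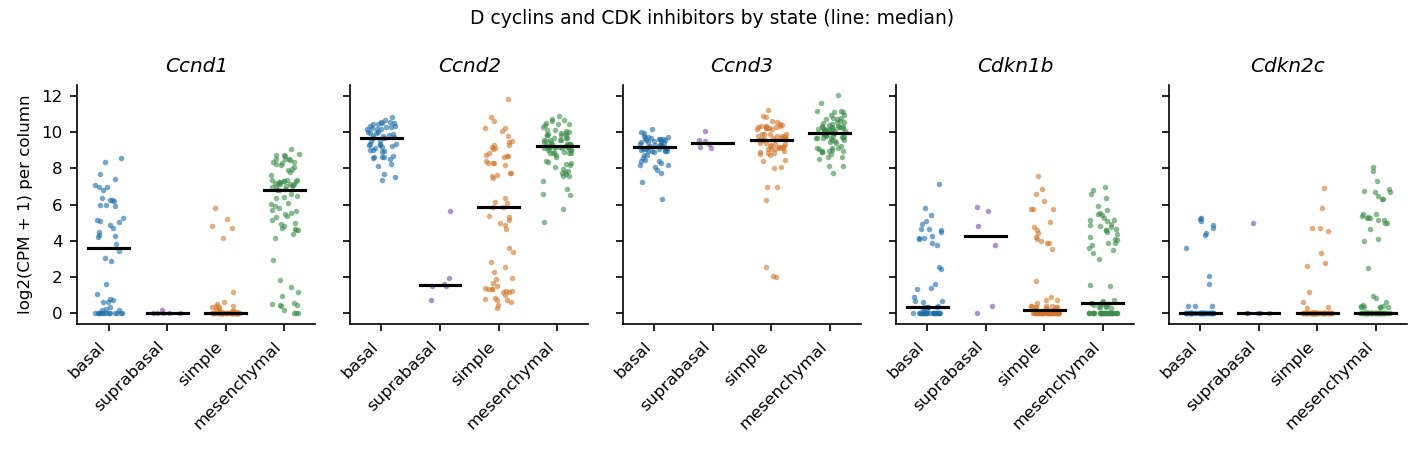
Level of the 3 D cyclins and of Cdkn1b and Cdkn2c in each column, as log2 of CPM plus 1, by state, with the line at the median. Ccnd2 is high in basal and mesenchymal columns, spread widely in simple columns and under 3 CPM in 5 of 6 suprabasal columns, while Ccnd3 is high in all 4 states.

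Cdkn2c was found mostly in columns with the G2/M list on, although the call did not use it. It was detected in 19 of 34 mesenchymal columns with the list on and 4 of 44 with it off, in 4 of 11 and 1 of 54 simple columns, and in 7 of 35 and 1 of 17 basal columns. In mesenchymal columns its summed level was 41.45 CPM in on and 5.875 CPM in off columns. Across the 78 mesenchymal columns it had an r of 0.63 with the number of G2/M genes, as a description of columns that share 1 sample. Ccnd2 ran the other way there, with an r of −0.41 and medians of 455.3 CPM in on and 757 CPM in off columns (91.32 to 1239 and 32.38 to 1918 CPM). In basal columns the Ccnd2 medians were 641.7 and 1002 CPM, with ranges that overlapped, and in simple columns they were 193.5 and 56.83 CPM.

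By label, WT-KCP cells had Ccnd1 of 17.5, 13.25, 321.9 and 0 CPM, whereas no WT-KCB cell was above 9.728 CPM. The groups overlapped at 0, and WT-KCP cell 3 carried most of the ratio of 5.25. The same cell had Cdkn1b of 136.9 CPM, where the other 3 WT-KCP cells had 4.958, 0.285 and 0.3152 CPM, and without it the Cdkn1b ratio was −1.18 in place of 2.77. Ccnd3 was lower in WT-KCP cells, at 216.1, 351.2, 263.5 and 76.91 CPM against 151.5 to 1027 CPM (median 538.7) in WT-KCB cells (−1.35), and the groups overlapped. Ccnd2 was at 506.5 to 1643 CPM in WT-KCP cells and 183.7 to 1248 CPM in WT-KCB cells, within 2-fold on summed counts (0.65). The WT-KCI cell had Ccnd2 of 2.911, Ccnd3 of 649 and Cdkn1b of 56.77 CPM. Cdkn2c was under 10 CPM in both groups on summed counts and was detected in WT-KCB cells 4 and 6 and in WT-KCP cell 1.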

How the data were processed

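Single cells were prepared with SMART-Seq HT, which adds no molecular identifiers, so intervals cover counting error only and amplified copies are not independent molecules. Per the labels and the study's methods, the authors trimmed reads with Trimmomatic, aligned 150 bp read pairs to mm10 with HISAT2, counted them per gene with featureCounts against Ensembl release 97 and normalized with DESeq2, which was not used here and for which the labels (1.36.0) and the methods give different versions. Whether counting used strand is not given in the sources used here. They deposited raw estimated counts per gene, of which 23.2% of the values above 0 were fractional, and these were rounded to whole numbers here. Symbols were matched for 55154 of 55335 gene rows.

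CPM, shares, exact Clopper-Pearson and exact Poisson 95% intervals and log2 ratios with a pseudocount of 1 CPM were computed with Python 3.11.15, numpy 2.4.6, pandas 2.3.3 and scipy 1.17.1, and the steps were tested on simulated data. Columns tied to a cell title numbered 16. The other columns entered as 1 pooled sample, so no count model was fitted, although one was possible for the unit. The background was every gene with at least 10 CPM in either group of a comparison. All 50 members were named. Other cell cycle genes were given by counts, naming at most the 3 furthest each way. Promoter motifs were looked for in RefSeq sequences of GRCm38.p6, and the 2 members per list shown were those with the highest summed CPM among those holding the list's motif. The members, lists and rules were chosen with earlier results of these data known. Alternatives covered the detection level, the genes needed for a call, thinning, the scanpy 1.11.5 phase caller, the pseudocount, the way columns were combined and leaving out each labelled cell.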

Additional observations from a re-analysis of the deposited data

Results flagged for a closer look

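A value was listed here where 1 cell or column of a group of 4 or 6 lay far from the others by Dixon's 95% critical value. The groups were the 4 WT-KCP cells and the 6 suprabasal columns, each read for several measures. Of 34 readings 11 stood out. Some measures overlap, many values were near 0 in most columns, and the critical value is meant for normally spread values. The 11 are therefore not set against a rate expected by chance. Among the 4 WT-KCP cells, cell 2 had the highest summed S CPM (9861, next 2695) and Mcm5 (852 CPM, next 117 CPM). WT-KCP cell 3 had the highest Ccnd1 (322 CPM, next 17.5 CPM) and Cdkn1b (137 CPM, next 4.96 CPM), and cell 1 was the one with Cdkn2c (11.4 CPM, the others at 0).

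Among the 6 suprabasal columns, column 5 stood apart for Top2a (969 CPM, next 50.6 CPM), Ube2c (395 CPM, next 46.1 CPM) and Cdkn2c (30.8 CPM, the others at 0). Column 4 did so for Ccnd2 (49.9 CPM, next 2.91 CPM) and column 6 for Ccnd3 (1066 CPM, next 740 CPM). For Ccnd1 the value in column 1 was 0.121 CPM, which is 1 count, with the others at 0.

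The 33 columns that met no state rule entered no comparison, and they too held cycling columns: the G2/M list was on in 9 of them, or 27.3% (exact 95% interval 13.3 to 45.5), and the S list in 12, or 36.4%.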

How the results depend on the processing

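The order of the states was read in 12 settings, which include the reported one. A minimum of 1000000 counts and 4000 genes, and totals without 3 genes, gave the same shares as reported in these 3 states. The order basal, mesenchymal, simple held for the G2/M list in 12 of 12 settings and for the S list in 11 of 12. The exception was the scanpy phase caller, which gives each column 1 phase and put S at 67.3% in basal, 69.2% in mesenchymal and 53.8% in simple columns. It put G2/M at 28.8% in basal and 20.5% in mesenchymal columns. With detection at 1 CPM the G2/M list was on in 84.6% of basal, 56.4% of mesenchymal and 29.2% of simple columns, and the S list in 100% of basal and suprabasal, 98.7% of mesenchymal and 73.8% of simple columns. At 50 CPM the S list was on in 78.8% of basal and 70.5% of mesenchymal columns. Needing 9 of 25 G2/M genes gave 82.7% in basal columns. Needing 7 of 20 S genes gave 100% in basal and suprabasal, 92.3% in mesenchymal and 76.9% in simple columns, and needing 14 gave 78.8%, 57.7% and 29.2% in basal, mesenchymal and simple columns. In splits by depth, chosen after seeing the data, the S list was on in 100% of the basal columns below the state's median total and in 0.0% of the 3 suprabasal columns at or above theirs. Leaving out the 1 simple column with the most hemoglobin, also chosen later, gave 17.2% for G2/M in simple columns and 23 G2/M genes lower. The number of S genes higher in mesenchymal columns was 0 with the mean of the columns' CPM and 1 with a pseudocount of 10 CPM. Leaving out 1 labelled cell gave 17 to 23 G2/M genes higher in WT-KCP, 0 to 2 S genes higher, 0 to 13 S genes lower, 1 to 2 G1 regulators higher and 1 lower. The log2 ratio of Cdc45 then ran from −0.94, without WT-KCP cell 2, to 1.97, and that of Cdkn1b from −1.18, without WT-KCP cell 3, to 3.27, and both kept their direction without any other cell. In all, 218 of 252 alternative values of the summary results stayed within their interval or within 1.5 times the count, and 34 did not. For single genes 1914 log2 ratios changed by less than 1 without crossing 2-fold, and 40 changed by 1 or more. A further 40 passed 2-fold, 34 no longer did and 2 reversed. A minimum of 1000000 counts and 4000 genes removed no column. Except where the setting itself sets the call, the cause was not tested. No paired analysis was possible because the results come from no test and the labelled cells are from 1 embryo.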

Other observations

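Other cell cycle genes, which are not among the 50 and were listed by role, were read in the same way. In simple against basal columns 34 of 38 other G2/M genes were lower by 2-fold or more, where 11.5% of all genes were, with Anln (−2.79), Sgo2a (−2.57) and Prc1 (−2.38) furthest away, and 23 of 33 other S genes, with E2f8 (−2.50), Mcm10 (−2.26) and Pola1 (−2.10) furthest. Of 18 other G1 genes, Rbl1 (−1.23) was lower and Cdkn2b (2.58), a CDK4 and CDK6 inhibitor at 12.02 against 1.185 CPM, was higher. Cdkn2b was detected in only 7 of 65 simple and 1 of 52 basal columns, and 14.8% of all genes were higher.

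In suprabasal columns 24 of 33 other S genes and 19 of 38 other G2/M genes were lower, where 27.3% of all genes were, including Chaf1b (−5.25) and Kif15 (−5.92). The CDK inhibitor Cdkn1a (p21), which is not among the 50, was at 264.2 to 701.1 CPM in all 6 suprabasal columns, also in the 3 with the G2/M list on, and was detected in 8 of 52 basal columns (summed levels 478.1 and 19.68 CPM, 4.53). Cdkn2b was also higher (3.68, detected in 3 of 6 columns), and Mycn (−4.61) and E2f3 (−1.91) were among 6 that were lower.

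In mesenchymal columns the CDK inhibitor Cdkn1c (p57) was at 1802 CPM against 134.6 CPM in basal columns (3.73), with medians of 1517 and 107.9 CPM. E2f5 was also higher (1.44), and Cdkn1a (−2.02) and Rbl1 (−1.31) were lower. Of the other G2/M genes, 11 of 38 were lower, where 18.6% of all genes were, with Nek2 (−1.81) furthest. In WT-KCP against WT-KCB cells 28 of 38 other G2/M genes were higher, with Psrc1 (4.18), Cdc25b (3.0) and Cdc25c (2.80) furthest, while of 33 other S genes 3 were higher and 3 lower. Of all genes, 15.8% were higher and 15.7% lower.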
